A study of Mus musculus with 12 samples.

Results

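Expression of 10 genes of the Hippo pathway was examined in 12 mouse tumors. The genes were 6 targets of the co-activator YAP and its TEAD partners (Ctgf, Cyr61, Ankrd1, Amotl2, Lats2 and Crim1) and 4 pathway components (Ajuba, Tead1, Yap1 and Wwtr1). They were listed by symbol among the 34678 symbols of the tables, and all 10 were found. The list was chosen by the FPKM of Ctgf, which was low in tumors given palbociclib, so the Ctgf values are given as a description with no test, and the tests below concern the other 9 genes.

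The tumors grew under the skin of C57BL/6 mice, bought at 5 to 8 weeks of age, from LLC1-shLkb1 cells, a mouse Lewis lung carcinoma line in which the kinase gene Lkb1 is knocked down. Each of 4 arms had 3 tumors. The vehicle arm received control immunoglobulin G, the palbociclib arm 100 mg/kg of this CDK4/6 inhibitor by mouth, the anti-PD-1 arm 200 µg per mouse of a PD-1 blocking antibody, and the combination arm both agents. Palbociclib and the antibody were given on set days of a weekly cycle rather than daily. Doses and ages come from the methods of the study. They place collection 2 weeks after treatment, for the isolation of lymphocytes or for staining, and give no separate time for RNA. All arms carried the Lkb1 knockdown, so no tumor with intact Lkb1 was part of the comparison. The level of Stk11, the gene that encodes Lkb1, lay between 7.90 and 11.5 FPKM over the 12 tumors. The labels call the tumors lung adenocarcinoma. Of 4 lung lineage genes, 2 (Nkx2-1 and Sftpc) were listed at 0 in every tumor. The sum of all 4, with Sftpb and Napsa, ran from 1.09 to 1.59 FPKM in vehicle tumors and 2.10 to 2.37 in palbociclib tumors. It ran from 1.44 to 2.50 FPKM in anti-PD-1 tumors and 1.33 to 2.30 in combination tumors.

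The Hippo pathway is a kinase cascade in which the kinases MST and LATS phosphorylate YAP and its relative TAZ, the product of Wwtr1, and keep them out of the nucleus. Unphosphorylated YAP and TAZ enter the nucleus, bind TEAD factors and switch on genes such as Ctgf, Cyr61 and Ankrd1. LKB1 acts through MARK kinases upstream of this cascade, and loss of LKB1 is known to raise YAP activity. Several targets, among them Lats2 and Amotl2, encode inhibitors of YAP and form a negative feedback. YAP is controlled mainly through its phosphorylation and location, which RNA levels do not measure.

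TEAD factors recognize the letters GGAATG, read on either strand, where the reverse strand shows CATTCC. This motif was searched in RefSeq promoter windows on GRCm38.p6, from 250 bases before to 50 bases after each annotated start. All 8 members with a window held at least 1 match, and in 7 of them a match lay before the start. In Lats2 the match lay after the start. Another Lats2 window held none, so 9 of 10 member windows had a match. The 2 Wwtr1 windows overlapped and held the same match, which this count includes for each window. Of all 32851 promoter windows, 14.7% held the motif, and 12.6% held it in the 250 bases before the start. Counted by gene, 16.6% of 27025 genes had a match. Ctgf and Tead1 had no entry. The 250 bases before the start are shown for 5 members, with the motif in capitals. Yap1 and Wwtr1 also held a match before the start and are not shown. The regions were chr3:145649986-145650235 on the minus strand for Cyr61, chr19:36119845-36120094 on the minus strand for Ankrd1, chr9:102717554-102717803 on the plus strand for Amotl2, chr14:54577662-54577911 on the minus strand for Ajuba and chr17:78199998-78200247 on the plus strand for Crim1.
Cyr61: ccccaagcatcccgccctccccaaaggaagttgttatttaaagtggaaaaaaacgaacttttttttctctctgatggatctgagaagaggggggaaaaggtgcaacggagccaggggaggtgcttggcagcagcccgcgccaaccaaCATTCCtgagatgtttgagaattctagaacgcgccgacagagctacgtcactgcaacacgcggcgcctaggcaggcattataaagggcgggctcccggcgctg
Ankrd1: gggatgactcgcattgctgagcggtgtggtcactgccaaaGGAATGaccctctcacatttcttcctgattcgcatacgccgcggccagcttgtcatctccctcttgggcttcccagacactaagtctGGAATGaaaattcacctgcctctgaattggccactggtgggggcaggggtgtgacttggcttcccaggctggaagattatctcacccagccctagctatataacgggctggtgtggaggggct
Amotl2: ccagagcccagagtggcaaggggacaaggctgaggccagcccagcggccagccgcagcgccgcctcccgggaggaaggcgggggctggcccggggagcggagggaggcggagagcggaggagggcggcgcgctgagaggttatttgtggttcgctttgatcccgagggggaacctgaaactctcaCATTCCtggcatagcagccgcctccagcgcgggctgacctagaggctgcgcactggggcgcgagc
Ajuba: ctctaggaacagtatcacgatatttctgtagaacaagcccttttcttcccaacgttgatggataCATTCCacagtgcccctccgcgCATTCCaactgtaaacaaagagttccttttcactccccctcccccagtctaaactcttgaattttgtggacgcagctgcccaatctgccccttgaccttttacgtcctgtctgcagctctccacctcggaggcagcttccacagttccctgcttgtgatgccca
Crim1: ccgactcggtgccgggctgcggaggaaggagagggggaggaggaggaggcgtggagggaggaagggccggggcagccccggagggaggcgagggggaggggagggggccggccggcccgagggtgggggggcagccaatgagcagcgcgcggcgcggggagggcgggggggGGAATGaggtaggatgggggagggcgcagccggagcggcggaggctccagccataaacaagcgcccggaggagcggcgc
Ankrd1 and Ajuba each held 2 matches, at 210 and 123 bases and at 186 and 164 bases before the start, and 1.33% of all windows held 2 or more. The single matches of Cyr61, Amotl2 and Crim1 began 103, 65 and 79 bases before the start. A match is a string of letters in a window and does not show that a TEAD factor was bound in these tumors.

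Levels are given in FPKM, fragment counts divided by transcript length and by library size, which can be set side by side between genes because of the division by length. In the vehicle arm Cyr61 had the highest mean, 42.3 ± 20.5 FPKM (SD, n = 3), followed by Wwtr1 at 22.2 ± 5.56, Ajuba at 16.9 ± 4.63, Yap1 at 11.96 ± 7.20 and Crim1 at 9.61 ± 0.590. Ctgf, Lats2 and Amotl2 followed at 5.56 ± 1.10, 5.55 ± 1.07 and 5.41 ± 2.23 FPKM. Ankrd1 and Tead1 were lowest at 3.89 ± 2.55 and 3.71 ± 0.745 FPKM. The vehicle tumors of neighbors in this order overlapped, except for Crim1 and Ctgf, which stood apart. Estimated library sizes ran from 14900000 to 20300000 fragments, with arm medians between 15500000 and 18500000 fragments. All 10 members passed the filter for testing, a mean of at least 0.1 FPKM, as did 15350 genes in all.

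**Figure D1:**
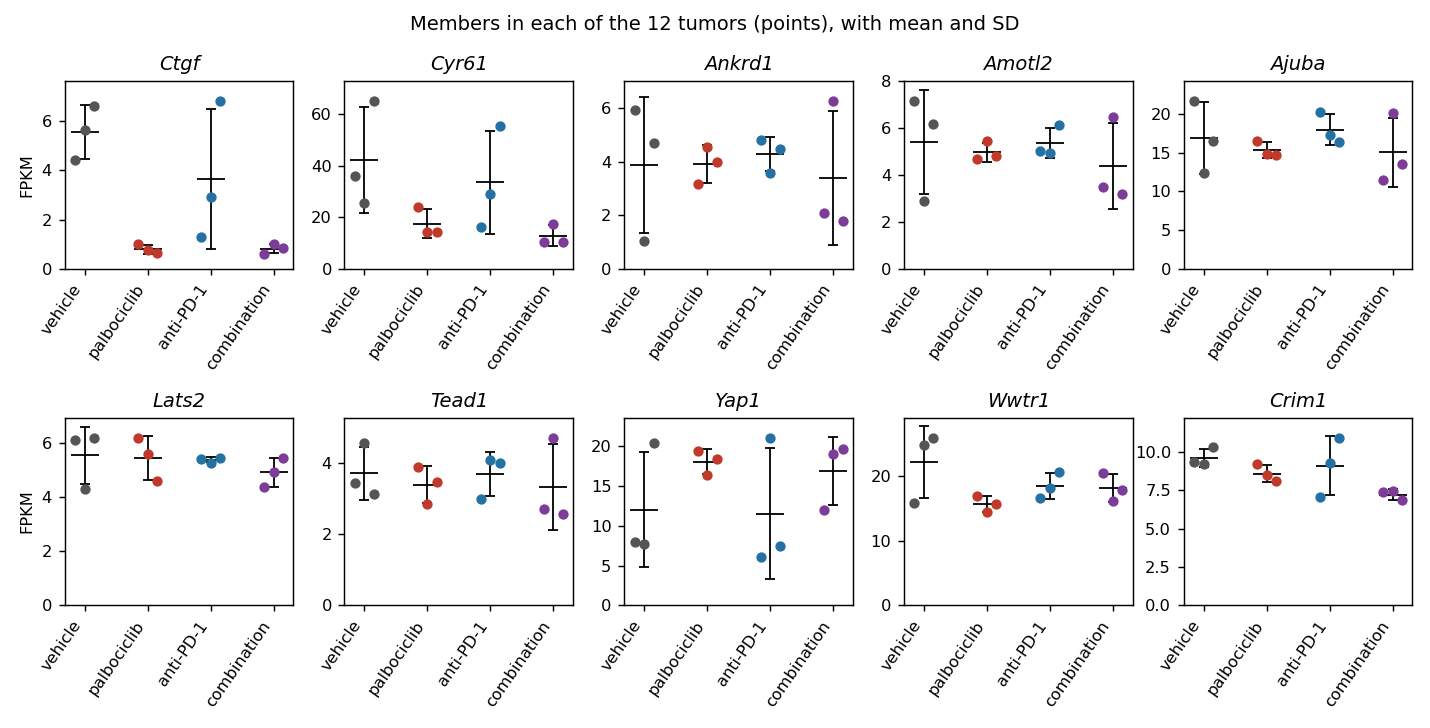
Each panel plots 1 gene on a linear FPKM axis that starts at 0, with a point for each tumor and a bar for the mean ± SD of each arm (n = 3). The 6 Ctgf points of the palbociclib and combination arms lie between 0.617 and 1.005 FPKM, below every vehicle and anti-PD-1 point, while in the other panels the points of these arms overlap at least those of the anti-PD-1 arm.

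Ctgf (Ccn2; chr10:24595442-24598683 on GRCm38, plus strand) encodes a secreted matricellular protein and is the most used readout of YAP activity. Its vehicle tumors had 4.41, 5.65 and 6.61 FPKM and its palbociclib tumors 0.998, 0.764 and 0.622 FPKM. The anti-PD-1 tumors had 1.27, 2.91 and 6.81 FPKM and the combination tumors 0.617, 1.005 and 0.843 FPKM. All palbociclib tumors were below all vehicle tumors, and all combination tumors were below all anti-PD-1 tumors. The mean was 14.3% of the vehicle mean with palbociclib and 22.4% of the anti-PD-1 mean with the combination. The anti-PD-1 arm spread widely, and its first tumor came closest to the palbociclib range. The lowest Ctgf value rested on an estimated 28.3 fragments. Averaged over the pair of comparisons with and without anti-PD-1 (called the palbociclib effect below), Ctgf was lower by 2.21 on the log2(FPKM + 0.1) scale, the scale of all differences below. With a pseudocount of 1 in place of 0.1 this Ctgf difference was -1.52. These Ctgf values chose the list and are not evidence about it.

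Among the other 9 genes none passed an adjusted p of 0.05 in the palbociclib effect (limma, Benjamini-Hochberg over 15350 genes), against 0.313% of all genes tested. At an unadjusted p under 0.05, Yap1 was higher and Cyr61 and Crim1 were lower, 3 of 9 genes against 20.5% of all genes (14.1% higher and 6.44% lower). The median difference of the 9 was -0.19 against 0.055 over all genes tested, and 8 of 9 differences were negative against 6166 of 15350. In the comparisons with vehicle, which share their vehicle tumors, limma called none of the 9 after palbociclib (0.143% of all genes called), none after anti-PD-1 (0.0% called) and none after the combination (0.013% called). At an unadjusted p under 0.05 these counts were 2 for palbociclib (Cyr61 and Wwtr1), 0 for anti-PD-1 and 2 for the combination (Cyr61 and Crim1), against 13.8%, 8.4% and 17.0% of all genes.

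Cyr61 (Ccn1; chr3:145646976-145649981, minus strand), the closest relative of Ctgf and a secreted protein that binds integrins, had the largest difference of the 9. The vehicle tumors had 36.2, 25.6 and 65.1 FPKM and the palbociclib tumors 24.0, 14.2 and 14.2 FPKM. The anti-PD-1 tumors had 16.2, 29.2 and 55.4 FPKM and the combination tumors 10.5, 17.5 and 10.3 FPKM. Palbociclib and combination tumors were all below the vehicle tumors, but the combination arm overlapped the anti-PD-1 arm because of the first anti-PD-1 tumor. The palbociclib mean was 41.3% of the vehicle mean, and the combination mean was 38.0% of the anti-PD-1 mean. The palbociclib effect was -1.23 (SE 0.32, 95% interval -1.93 to -0.54, limma adjusted p = 0.0938), which missed the threshold. Of the 15350 genes tested, 68 had a lower palbociclib effect. Against vehicle the difference was -1.21 after palbociclib (adjusted p = 0.311), -0.40 after anti-PD-1 (adjusted p = 0.823) and -1.65 after the combination (adjusted p = 0.184). Without the first anti-PD-1 tumor the palbociclib effect of Cyr61 was -1.45 with an adjusted p of 0.0327, in a fit that called 4.94% of all genes in place of 0.313%. In that fit Crim1 passed too (-0.32, adjusted p = 0.0417), so 2 of the 9 members were called.

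The ratio of Cyr61 to Ctgf FPKM shows how far the pair parted. It was 8.20, 4.53 and 9.84 in the vehicle tumors and 24.0, 18.6 and 22.8 in the palbociclib tumors, with no overlap. It was 12.7, 10.04 and 8.14 in the anti-PD-1 tumors and 17.1, 17.4 and 12.2 in the combination tumors, which overlapped. The ratio contains Ctgf and is a description without a test.

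Ankrd1 (chr19:36111961-36120099, minus strand), a stress-responsive ankyrin repeat protein first known from heart muscle and a standard YAP target, showed no such order of the arms. The vehicle tumors had 5.93, 1.03 and 4.72 FPKM and the palbociclib tumors 3.18, 4.57 and 4.001 FPKM. The anti-PD-1 tumors had 4.82, 3.58 and 4.47 FPKM and the combination tumors 2.09, 6.27 and 1.78 FPKM. The arms overlapped throughout, and the palbociclib mean was 101% of the vehicle mean. The palbociclib effect was -0.12 (95% interval -1.03 to 0.79, limma adjusted p = 0.892). The highest Ankrd1 values were in the second combination tumor and the first vehicle tumor, which were also the tumors of their arms with the highest summed FPKM of 10 skeletal muscle genes, 175 and 65.6. The highest muscle sum of all 12 tumors, 195.2 FPKM, was in the third palbociclib tumor, whose Ankrd1 of 4.001 FPKM lay below that of the second palbociclib tumor, where the muscle sum was 7.85 FPKM. Over the 12 tumors this sum had r = 0.50 with Ankrd1 on the log2 scale, and its part in the Ankrd1 values was not tested.

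Amotl2 (chr9:102716672-102733418, plus strand) encodes an angiomotin family scaffold that binds and restrains YAP. It had 7.15, 2.90 and 6.19 FPKM in the vehicle tumors, 4.68, 5.43 and 4.80 in the palbociclib tumors, 5.04, 4.94 and 6.12 in the anti-PD-1 tumors and 3.48, 6.48 and 3.19 in the combination tumors. No arm stood apart, and the palbociclib effect was -0.19 (95% interval -0.69 to 0.31, limma adjusted p = 0.658). Lats2 (chr14:57689662-57758388, minus strand), the kinase that phosphorylates YAP, had 6.13, 4.32 and 6.20 FPKM in the vehicle tumors, 6.19, 5.62 and 4.59 in the palbociclib tumors, 5.43, 5.29 and 5.46 in the anti-PD-1 tumors and 4.38, 4.94 and 5.45 in the combination tumors. Its arms overlapped as well, with the smallest palbociclib effect of the 9 at -0.074 (95% interval -0.32 to 0.17, limma adjusted p = 0.730).

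Crim1 (chr17:78200248-78376592, plus strand), a transmembrane protein that binds growth factors of the BMP family, differed little, with a narrow spread except in the anti-PD-1 arm (SD 1.92 FPKM). It had 9.36, 9.20 and 10.3 FPKM in the vehicle tumors, 9.19, 8.49 and 8.07 in the palbociclib tumors, 7.08, 9.27 and 10.9 in the anti-PD-1 tumors and 7.37, 7.45 and 6.83 in the combination tumors. Palbociclib and combination tumors were all below the vehicle tumors, although the highest palbociclib value, 9.185, lay just under the lowest vehicle value, 9.196. The palbociclib effect was -0.23 (SE 0.10, 95% interval -0.45 to -0.018, limma adjusted p = 0.216), and the combination differed from vehicle by -0.41 (95% interval -0.71 to -0.10, limma adjusted p = 0.217). Crim1 and Cyr61 were thus the 2 of 9 members with all palbociclib tumors under all vehicle tumors, an arrangement that 6.47% of all genes tested had. They were also the 2 of 9 with all combination tumors under all vehicle tumors, against 11.6% of all genes. None of the 9 was lower without overlap both in palbociclib against vehicle and in combination against anti-PD-1, an arrangement that 0.879% of all genes tested had.

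**Figure D2:**
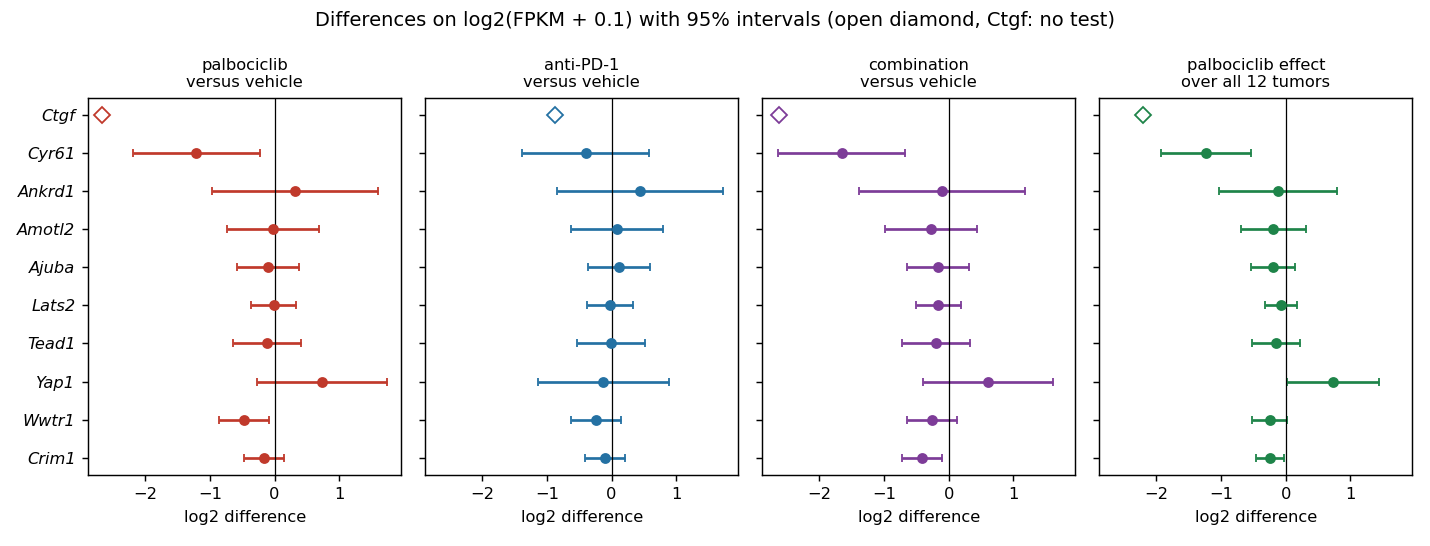
Differences on the log2(FPKM + 0.1) scale are plotted for each gene in 3 comparisons with vehicle and in the palbociclib effect, with bars for 95% intervals of the limma fit and an open diamond without an interval for Ctgf. In the palbociclib effect the intervals of Cyr61 and Crim1 lie below 0 and that of Yap1 above it, before adjustment over all genes, and the Ctgf difference is -2.21.

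Among the pathway components, Yap1 (chr9:7931999-8004596, minus strand), which encodes YAP itself, was the gene with the most positive difference. The vehicle tumors had 7.91, 7.698 and 20.3 FPKM and the palbociclib tumors 19.4, 16.3 and 18.3 FPKM. The anti-PD-1 tumors had 6.11, 20.98 and 7.39 FPKM and the combination tumors 11.98, 19.0 and 19.6 FPKM. The third vehicle tumor and the second anti-PD-1 tumor reached the level of the palbociclib tumors while the other 4 tumors of those arms lay between 6.11 and 7.91 FPKM, so the arms overlapped. The palbociclib effect was 0.74 (SE 0.32, 95% interval 0.025 to 1.45, limma adjusted p = 0.231).

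Wwtr1 (chr3:57455649-57575910, minus strand), which encodes TAZ, had 15.8, 24.8 and 25.9 FPKM in the vehicle tumors, 16.9, 14.5 and 15.7 in the palbociclib tumors, 16.6, 18.1 and 20.6 in the anti-PD-1 tumors and 20.4, 16.1 and 17.8 in the combination tumors. The first vehicle tumor lay in the palbociclib range. The palbociclib effect was -0.25 (95% interval -0.52 to 0.028, limma adjusted p = 0.285), and palbociclib alone differed from vehicle by -0.47 (95% interval -0.85 to -0.08, limma adjusted p = 0.318). Without the first vehicle tumor the palbociclib effect of Wwtr1 was -0.36 with an adjusted p of 0.0460, as the 1 member called in a fit that called 4.51% of all genes.

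Tead1 (chr7:112679318-112906807, plus strand), a DNA-binding partner of YAP, had 3.44, 4.55 and 3.13 FPKM in the vehicle tumors, 3.86, 2.84 and 3.46 in the palbociclib tumors, 2.97, 4.08 and 3.99 in the anti-PD-1 tumors and 2.69, 4.69 and 2.55 in the combination tumors. Ajuba (chr14:54567472-54577558, minus strand), a LIM protein that inhibits LATS kinases, had 21.7, 12.4 and 16.6 FPKM in the vehicle tumors, 16.6, 14.8 and 14.7 in the palbociclib tumors, 20.3, 17.3 and 16.4 in the anti-PD-1 tumors and 11.5, 20.1 and 13.5 in the combination tumors. The arms overlapped for both genes. The palbociclib effect was -0.15 for Tead1 (95% interval -0.53 to 0.22, limma adjusted p = 0.623) and -0.20 for Ajuba (95% interval -0.54 to 0.14, limma adjusted p = 0.489).

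Neither the anti-PD-1 effect, averaged with and without palbociclib, nor the interaction of the agents gave a call among the 9 (limma; 0.0% of all genes called in each). At an unadjusted p under 0.05 there were 0 of 9 in both, against 6.77% and 5.73% of all genes. For Ctgf these differences were -0.41 and 0.91, without a test.

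The genes also varied within arms. On the log2 scale, Cyr61 had r = 0.90 with Ctgf over the 12 tumors and r = 0.83 after the arm means were subtracted. Crim1 had r = 0.80 with Ctgf and r = 0.92 after the arm means were subtracted. The anti-PD-1 arm had the widest spread in Ctgf (1.27 to 6.81 FPKM) and Crim1 (7.08 to 10.9 FPKM) and so weighed most in this value. Cyr61 and Crim1 ranked the tumors as Ctgf did in the palbociclib and anti-PD-1 arms, but not in the vehicle and combination arms. Ankrd1 had r = 0.018 with Ctgf, while Ankrd1 and Amotl2 had r = 0.96 with each other, Amotl2 and Ajuba r = 0.82, and Ankrd1 and Ajuba r = 0.81. The second vehicle tumor had the lowest Ankrd1 and Amotl2 of all 12 tumors, and without it the correlation with Ctgf was 0.43 for Ankrd1 and 0.63 for Amotl2. Ajuba and Wwtr1 ran opposite to each other, with r = -0.41, and -0.74 after the arm means were subtracted. These values are descriptions over 12 tumors in 4 arms, and the tumors share the scaling of their library.

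**Figure D3:**
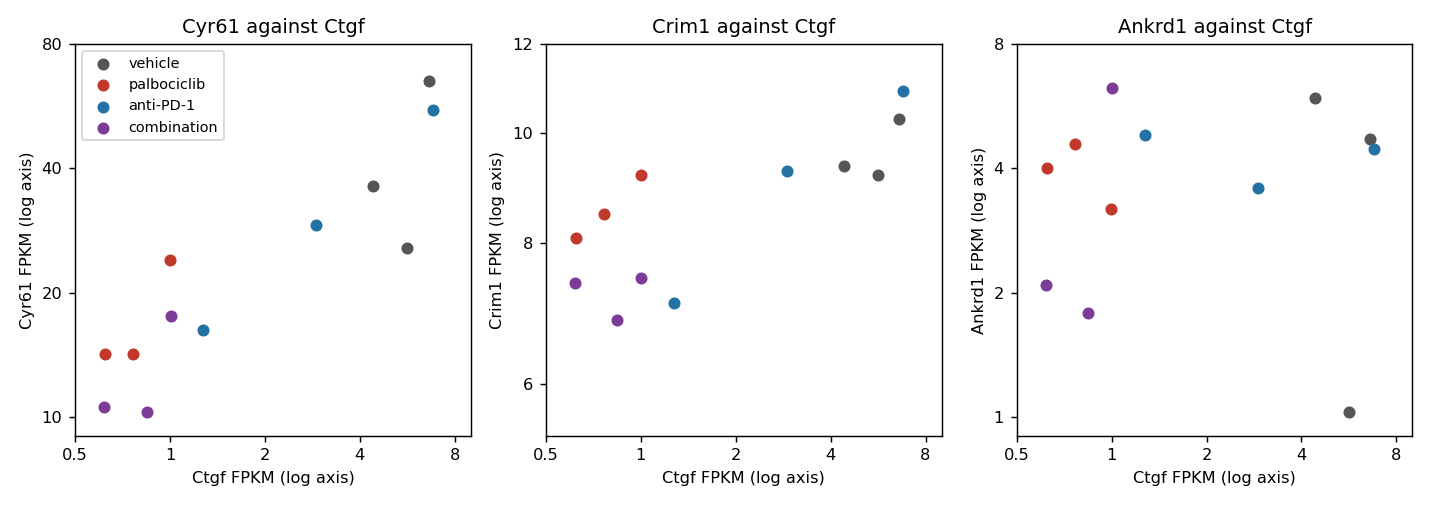
FPKM of Cyr61, Crim1 and Ankrd1 (vertical, log axes) is plotted against Ctgf FPKM (horizontal, log axis), with a point for each of the 12 tumors colored by arm. Cyr61 and Crim1 are higher in tumors with more Ctgf (r = 0.90 and 0.80), and Ankrd1 is spread without such an order (r = 0.018), with 1 vehicle tumor far below the rest.

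Among the 11187 genes with a mean of at least 1 FPKM, those with the highest correlation with Ctgf over the 12 tumors included 8430408G22Rik (r = 0.972), Apold1 (r = 0.958), Fbxo30 (r = 0.947) and Dusp1 (r = 0.936). Apold1 is an early response gene of endothelial cells, and Dusp1 encodes a phosphatase that switches off MAP kinases. After the arm means were subtracted the values were 0.856, 0.908, 0.851 and 0.811. The genes were picked for their correlation in these same tumors, so both sets of values are descriptions without a test. Cyr61 was outranked by 20 genes other than Ctgf, Crim1 by 227 and Wwtr1 by 975.

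Of 16 further published YAP-TEAD target genes, all were tested and Igfbp3 fell in the palbociclib effect, 1 of 16 against 0.313% of all genes. Igfbp3, which encodes a carrier of insulin-like growth factors, had 22.05, 27.0 and 71.0 FPKM in the vehicle tumors and 10.7, 5.88 and 6.35 in the palbociclib tumors. The anti-PD-1 tumors had 18.4, 49.2 and 61.1 FPKM and the combination tumors 6.82, 12.7 and 12.8 FPKM. Both comparisons were without overlap, and the palbociclib effect was -2.05 (SE 0.36, limma adjusted p = 0.0467), a value close to the threshold that passed it in 8 of 22 alternative settings. The next largest differences in this list belonged to Ccdc80, a secreted matrix protein, at 1.95 (limma adjusted p = 0.248), and to F3, the tissue factor that starts coagulation, at -1.09 (limma adjusted p = 0.125). Ccdc80 was low, with a vehicle median of 0.0997 FPKM and its highest value, 7.36 FPKM, in the first combination tumor. Its arms overlapped, and its difference ranged from 0.88 to 2.56 under other settings. Igfbp3 and Gadd45a, the latter named after its values were seen, were the 2 of 16 genes lower without overlap in both comparisons, against 0.879% of all genes. The median of the 16 was -0.060 against 0.055 over all genes, and 12 were negative. At an unadjusted p under 0.05, 0 were higher and 4 lower, against 14.1% higher and 6.44% lower over all genes. The 4 were Igfbp3, F3, Gadd45a (-0.69), a stress-induced inhibitor of the cell cycle, and Nt5e (-0.66), which encodes the ectoenzyme CD73. The highest tumor for Nt5e had 0.558 FPKM.

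Of 29 further Hippo components, 26 were tested and limma called none in the palbociclib effect, against 0.313% of all genes. At an unadjusted p under 0.05, 0 were higher and 4 lower, against 14.1% and 6.44% of all genes. The 4 were Tead4, Map4k4 (-0.41) and Taok1 (-0.22), both kinases upstream of LATS, and Amotl1 (-0.24), an angiomotin family member. The median of the 26 was -0.068. The largest differences were 0.77 for Vgll3, a TEAD cofactor whose highest tumor had 0.583 FPKM, 0.47 for Mob1a, an activator of LATS kinases, and -0.43 for Tead4, another TEAD factor (limma adjusted p = 0.354, 0.268 and 0.211). Mob1a had 7.79 FPKM in the first vehicle tumor and between 19.7 and 28.2 FPKM in the other 11.

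Neighboring gene groups were read the same way, and limma called none of their genes in the palbociclib effect. Their counts at an unadjusted p under 0.05 stand against 14.1% higher and 6.44% lower over all genes. The 3 tested relatives of Ctgf and Cyr61 in the CCN family had differences of 0.60 (Wisp2), 0.14 (Nov) and -0.11 (Wisp1), with 0 at an unadjusted p under 0.05, and the signs of Nov and Wisp1 turned under other settings. All 3 were low, each with a mean under 1 FPKM over the 12 tumors. Of 12 targets of the actin-sensing factors SRF and MRTF, which share several genes with YAP, 0 were higher and 2 lower at an unadjusted p under 0.05, Actn1 (-0.44) and Vcl (-0.33), which encode proteins that link actin to adhesion sites. The largest differences of this list were in Tagln (-0.60), Acta2 (-0.53) and Myl9 (-0.45). Of 7 targets of TGF-beta, 1 was higher and 3 were lower at an unadjusted p under 0.05. The higher one was Tgfbi (0.82, limma adjusted p = 0.197), and the lower ones included Smad7 (-0.72, limma adjusted p = 0.179) and Skil (-0.70, limma adjusted p = 0.134). The 5 genes of LKB1 and the MARK kinases had 0 at an unadjusted p under 0.05 and a median of -0.11, with the largest differences in Mark1 (-0.17), Mark2 (-0.12) and Mark4 (-0.11). Mark1 also had a mean under 1 FPKM.

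Some other readouts of the tumors moved with Ctgf or against it, and others did not. In bulk tumors, fewer cells of a type and less RNA per cell cannot be told apart. The summed FPKM of 5 endothelial genes ran from 20.8 to 35.3 in vehicle tumors, 16.8 to 22.2 in palbociclib tumors, 24.2 to 37.0 in anti-PD-1 tumors and 15.7 to 22.2 in combination tumors. On the log2 scale it had r = 0.66 with both Ctgf and Cyr61. The summed FPKM of 10 proliferation genes ran from 349 to 413, 443 to 480, 377 to 509 and 488 to 508 in the same order of arms, with r = -0.88 with Ctgf. The 7 fibroblast genes had r = 0.045 with Ctgf and the 6 leukocyte genes r = -0.63. For 4 cancer cell genes (Epcam, Krt8, Krt18 and Krt19) r was 0.067, and for the 4 lung lineage genes it was -0.70. The highest sums of fat and skin genes, 321 and 360.9, were in tumors given palbociclib, against at most 4.75 and 0.0706 in tumors without it. Not all tumors given palbociclib were high, as the combination arm had a lowest fat sum of 1.16 and a median skin sum of 0.088. No gene of these lists was called in the palbociclib effect, and their part in the values of the 10 genes was not tested.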

How the data were processed

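Bulk RNA was sequenced from 12 tumors, 3 per arm. Each tumor has its own table of 34745 entries, which the authors deposited as FPKM, and per the submitters' processing notes reads were aligned with HISAT2 to GRCm38 (mm10). The counting tool, the annotation and the HISAT2 version were not given in the sources used here. For 67 repeated symbols the entry with the highest mean was kept. Groups, replicate numbers and the tumor site came from the sample labels, doses and the age of the mice at purchase from the study's methods. The labels do not state that the tumors came from separate mice, so p-values measure the spread between these tumors.

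Genes with a mean of at least 0.1 FPKM were tested on log2(FPKM + 0.1), which understates the change of low genes, with limma 3.58.1 in R 4.3.3 (1 mean per arm over all 12 tumors, eBayes with a trend, Benjamini-Hochberg, threshold 0.05). The fit was tested on simulated data. The palbociclib effect is the mean of palbociclib minus vehicle and combination minus anti-PD-1. Fragment numbers were estimated from the steps of low FPKM values and from exon lengths, and cover counting error only. Positions came from GENCODE M21 and promoters from RefSeq, both on GRCm38.

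Members and lists were chosen with earlier results of these data known. The text names every member, from each of 6 lists the genes called in any contrast and the 3 largest palbociclib effects, and the 5 genes most correlated with Ctgf. A gene that this rule names is not reported here. Gadd45a, Nt5e, Map4k4, Taok1, Amotl1, Dlg5, Vcl, Actn1 and Skil were named after their values were seen. Alternatives were pseudocounts of 1 and 0.01, other filters, TPM, quantile normalization, no trend, a replicate block, only the arms compared and each tumor left out. After the marker values were seen, 2 settings were added that leave out 3 tumors each, the first without vehicle 1, palbociclib 3 and combination 2 (high in muscle genes), the second without palbociclib 1, palbociclib 2 and combination 1 (high in fat or skin genes), where the lone palbociclib tumor is assumed to vary like the others. Tables and figures used pandas 2.3.3 and matplotlib 3.10.9 (Python 3.11.15).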

Additional observations from a re-analysis of the deposited data

How the results depend on the processing

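Over 819 refits of single members in the comparisons with vehicle and the palbociclib effect, 3 passed the threshold, all with 1 tumor left out (Cyr61 and Crim1 without anti-PD-1 replicate 1, Wwtr1 without vehicle replicate 1). The adjusted p of Cyr61 in the palbociclib effect ranged from 0.0327 to 0.331 and passed in 1 of 22 settings. Leaving out single tumors gave 0 to 2 calls among the 9 members, 0 to 3 among the wider YAP-TEAD targets (Igfbp3, F3 and Gadd45a without vehicle replicate 1 or anti-PD-1 replicate 1), 0 to 1 among the Hippo components (Map4k4 without vehicle replicate 1, Dlg5 without anti-PD-1 replicate 1) and 0 to 758 over all genes, with 692 without vehicle replicate 1, 758 without anti-PD-1 replicate 1 and 264 without combination replicate 2. For the anti-PD-1 effect and the interaction, none of 198 refits each of single members passed, with lowest adjusted p-values of 0.560 and 0.694.

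The number of calls over all genes in the palbociclib effect, 48, became 11 with every gene above 0 FPKM, 0 without a trend, 129 with the replicate block, 154 without the 3 tumors high in muscle genes and 6 without the 3 high in fat or skin genes. The single call among the wider YAP-TEAD targets, Igfbp3, became 0 with a pseudocount of 1, with every gene above 0 FPKM, without a trend and without either set of 3 tumors. Its adjusted p ranged from 0.0208 to 0.263. Actn1 passed without vehicle replicate 1 and without anti-PD-1 replicate 1, and Smad7 without anti-PD-1 replicate 1. With a pseudocount of 1 the Ctgf difference became -1.86 in palbociclib against vehicle, -1.84 in the combination against vehicle and -1.52 in the palbociclib effect. For palbociclib against vehicle the 22 calls became 34 with TPM, 1 with quantile normalization, 6 without a trend, 51 with the replicate block, 0 with only the arms compared, 0 without the 3 tumors high in muscle genes and 1 to 46 with single tumors left out. For the combination against vehicle the 2 calls became 5 with a pseudocount of 0.01, 1 without a trend, 1 with the replicate block, 0 with only the arms compared, 0 without either set of 3 tumors and 0 to 5 with single tumors left out. For anti-PD-1 against vehicle the count of 0 became 1 with every gene above 0 FPKM and 0 to 1 with single tumors left out. For the anti-PD-1 effect it became 1 with a mean of at least 1 FPKM, 3 with every gene above 0 FPKM, 6 without the 3 tumors high in fat or skin genes and 0 to 1 with single tumors left out. For the interaction it became 1 with a pseudocount of 0.01, 2 with a mean of at least 1 FPKM, 7 with every gene above 0 FPKM, 1 with TPM, 2 with quantile normalization, 6 without the 3 tumors high in fat or skin genes and 0 to 3 with single tumors left out. The causes were not tested.

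Differences of uncalled genes changed sign as follows. Without the 3 tumors high in muscle genes, palbociclib against vehicle gave 0.24 for Amotl2, 0.13 for Ajuba and 0.18 for Lats2, anti-PD-1 against vehicle 0.056 for Lats2, and the palbociclib effect 0.022 for Lats2 and 0.35 for Wisp1. Without the 3 high in fat or skin genes, the combination against vehicle gave 0.11 for Ankrd1 and 0.0024 for Ajuba, and the palbociclib effect 0.014 for Ankrd1. Quantile normalization gave 0.020 for Lats2 and 0.050 for Tead1 in anti-PD-1 against vehicle and -0.083 for Nov in the palbociclib effect, as did a pseudocount of 1 (-0.085). With single tumors left out, palbociclib against vehicle ranged from -0.44 to 0.77 for Ankrd1, -0.42 to 0.22 for Amotl2, -0.30 to 0.094 for Ajuba, -0.18 to 0.10 for Lats2 and -0.23 to 0.033 for Tead1. Anti-PD-1 against vehicle ranged from -0.85 to 0.037 for Cyr61, -0.31 to 0.90 for Ankrd1, -0.31 to 0.33 for Amotl2, -0.080 to 0.32 for Ajuba, -0.19 to 0.064 for Lats2, -0.12 to 0.15 for Tead1, -0.67 to 0.33 for Yap1 and -0.24 to 0.066 for Crim1. The combination against vehicle ranged from -0.86 to 0.35 for Ankrd1 and -0.40 to 0.028 for Ajuba, and the palbociclib effect from -0.50 to 0.11 for Ankrd1, -0.20 to 0.73 for Nov and -0.50 to 0.19 for Wisp1.

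The correlations of 18 same-numbered pairs of tumors ranged from -0.213 to 0.453, and those of the 36 other pairs from -0.353 to 0.309. These ranges overlap, so they cannot decide whether replicate numbers pair the tumors. Under the replicate block the calls among the 9 members stayed at 0 in every contrast. Over all genes the calls in the palbociclib effect rose from 48 to 129. With 3 tumors per arm the intervals are wide, and the lowest Ctgf values rest on few fragments.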
